A study of Mus musculus with 8 samples.

Results

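A set of 10 genes that neurons transcribe within minutes of synaptic activity were followed in the hippocampus of young mice, namely Fos, Fosb, Fosl2, Junb, Egr1, Egr2, Egr3, Nr4a1, Npas4 and Arc. They were chosen by name, and all 10 of 10 were found by their Ensembl identifiers among the 20802 genes of the table. Immediate early genes need no new protein for their induction. Calcium entry and kinase signalling act on factors that are already bound at their promoters, such as CREB and serum response factor, and most of the resulting RNAs decay soon after the stimulus ends. In the hippocampus they are widely used to mark neurons that were recently active.

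The Anesthesia group (n = 4) was given ketamine, an NMDA receptor antagonist, intraperitoneally at 35 mg/kg once a day for 5 days from PND16, where PND is the postnatal day. The Control group (n = 4) was given saline on the same days per the treatment protocol, whereas their titles read untreated. All 8 animals were male C57BL/6 mice, and the hippocampus was taken at PND28. Each library came from a separate mouse, and the values are normalized counts whose totals ran from 18702634 to 19231119 per mouse, from about 15500000 to 22200000 reads as estimated from the step between low values. The comparison asks whether the levels of these genes at PND28 differed after the repeated anesthesia.

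None of the 10 genes passed the test between the groups. In limma, 0 of 10 had an unadjusted p under 0.05, against 1513 of the 18865 genes tested (8.02%), of which 897 were higher and 616 lower in the Anesthesia group. No member passed an adjusted p of 0.05, and neither did any other gene (0 of 18865, 0%), the smallest adjusted p being 0.381. The paper, which fitted read counts with DESeq2, reported differentially expressed genes between these groups at an adjusted p under 0.05. That model was not run here. In simulated data with known changes, limma called 65% of log2 changes of 1 and 32% of log2 changes of 0.5. By limma voom the members at an unadjusted p under 0.05 also numbered 0. The values of the groups overlapped for all 10 members, whereas 950 genes (5.04%) had groups that did not overlap. Of the members, 7 were higher and 3 lower on average in the Anesthesia group, and their median log2 fold change was 0.09, beside 0.00 for all genes tested. With a mouse left out this median ran from -0.002 (without Control 1) to 0.213 (without Anesthesia 1). These fold changes are differences of mean log2(normalized count + 1).

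The highest and lowest mice were not the same for every gene. Anesthesia 3 had the highest value of the 8 mice for 6 of the 10 genes, namely Fos, Fosb, Egr1, Egr3, Nr4a1 and Npas4, and the lowest for 0 of the 10, and it was at 0.968, 0.917, 1.059 and 1.104 times the median of the other 7 mice for Arc, Junb, Egr2 and Fosl2. Anesthesia 1 had the lowest value for 4 genes and Control 1 for 3. The highest and the lowest mean profile of the 10 genes were both found in the Anesthesia group. In bulk tissue, fewer active cells and less RNA per cell cannot be told apart.

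**Figure D1:**
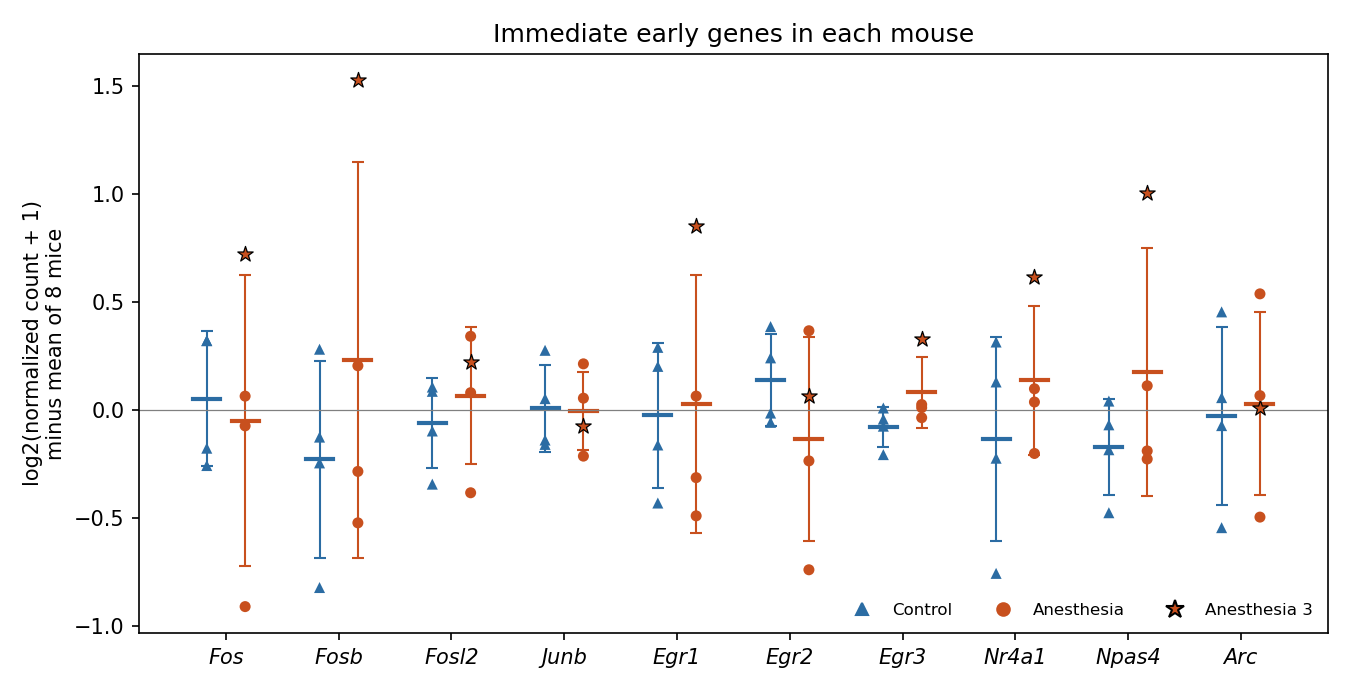
Log2(normalized count + 1) of each immediate early gene in each mouse, minus the mean of the 8 mice. Triangles are Control mice and circles are Anesthesia mice, with Anesthesia 3 drawn as a star, and thick lines and bars give the group mean and SD (n = 4). The groups overlap for all 10 genes, and the star is uppermost for 6 of them.

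The AP-1 family forms a dimeric transcription factor in which Fos proteins pair with Jun proteins. Fos, the classic marker of recent neuronal activity, was at 61.8, 111, 194 and 122 normalized counts in Anesthesia 1 to 4 and at 103, 147, 97.8 and 146 in Control 1 to 4. The lowest and the highest mouse were both in the Anesthesia group, and the Control mice lay between them. The means were 122 ± 54.6 and 124 ± 26.6 (SD, n = 4 each), and the log2 fold change was -0.10 with an SE of 0.30 (95% interval -0.76 to 0.56, limma adjusted p = 0.939). Without Anesthesia 1 this difference turned to 0.19.

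Fosb, whose truncated product accumulates with repeated stimulation, was at 30.2, 17.8, 76.9 and 21.2 in the Anesthesia group and at 31.9, 14.3, 23.8 and 21.8 in the Control group. Anesthesia 3 held 3.53 times the median of the other 7 mice, and the remaining Anesthesia mice lay within the Control range. Its log2 fold change was 0.46 with an SE of 0.43 (limma adjusted p = 0.777), and 0.03 without Anesthesia 3. The within-group SD of Fosb was larger than that of 95.8% of the genes tested. Outside Anesthesia 3 Fosb was at 14.3 to 31.9 normalized counts, so these values rest on few reads. The part of counting error in its spread was not tested.

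Fosl2, which encodes the AP-1 subunit Fra-2, was at 594, 431, 656 and 712 in the Anesthesia group and at 525, 605, 443 and 597 in the Control group. In the Anesthesia group 2 mice exceeded every Control mouse, and 1 was below all of them. For Fosl2 the log2 fold change was 0.13 with an SE of 0.16 (limma adjusted p = 0.828), and it was 0.03 without Control 3 and 0.035 without Anesthesia 4. Without Anesthesia 2, the lowest mouse, it was 0.28 with an adjusted p of 0.533 in limma, the only case in which a member had an unadjusted p under 0.05.

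Junb, the Jun partner with the weaker transactivation, was at 661, 889, 729 and 796 in the Anesthesia group and at 686, 795, 696 and 929 in the Control group. Both groups covered nearly the same range, with a high mouse in each. Junb had a log2 fold change of -0.01 with an SE of 0.12 (limma adjusted p = 0.984), and its sign turned when any of 4 mice was left out.

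The Egr genes encode zinc finger transcription factors that bind GC-rich promoter elements. Egr1, also known as Zif268, was at 247, 279, 627 and 363 in the Anesthesia group and at 257, 399, 310 and 424 in the Control group. Anesthesia 3 stood at 2.02 times the median of the other 7 mice, while Anesthesia 1 was below all 4 Control mice and Anesthesia 2 below 3 of them. The log2 fold change was 0.05 with an SE of 0.27 (limma adjusted p = 0.963), and it was -0.22 without Anesthesia 3.

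Egr2, or Krox20, had the lowest level per kb of the 10 genes, at 11.9, 26.9, 21.6 and 17.4 in the Anesthesia group and at 24.6, 20.4, 19.8 and 27.3 in the Control group. In the Anesthesia group 2 mice were below every Control mouse, and the other 2 lay within the Control range. Egr2 had a log2 fold change of -0.28 with an SE of 0.28 (limma adjusted p = 0.793), and it was -0.07 without Anesthesia 1. Egr2 values rest on few reads, and the part of counting error in its spread was not tested.

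Egr3, a target of neuronal activity that can be maintained longer than Egr1, was at 433, 452, 557 and 447 in the Anesthesia group and at 447, 385, 422 and 431 in the Control group. In the Anesthesia group 3 of 4 mice exceeded every Control mouse, Anesthesia 3 by far and Anesthesia 2 and Anesthesia 4 narrowly (452.0 and 447.5 against 446.9 in Control 1), and Anesthesia 1 lay within the Control range. The log2 fold change was 0.16 with an SE of 0.10 (limma adjusted p = 0.677, the smallest of the 10), and 0.08 without Anesthesia 3. Egr3 also varied least within the groups, with an SD larger than that of 32% of the genes tested.

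Nr4a1, an orphan nuclear receptor also called Nur77, was at 307, 378, 541 and 362 in the Anesthesia group and at 209, 386, 302 and 439 in the Control group. The highest mouse was Anesthesia 3 and the lowest Control 1, with the other 6 interleaved. Nr4a1 had a log2 fold change of 0.27 with an SE of 0.23 (limma adjusted p = 0.757), and it was 0.06 without Control 1 and 0.11 without Anesthesia 3.

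Npas4, a bHLH-PAS factor that is induced selectively by calcium entry into neurons, was at 56.5, 58.0, 134 and 71.7 in the Anesthesia group and at 47.4, 68.2, 58.2 and 63.1 in the Control group. Anesthesia 3 had 2.3 times the median of the other 7 mice, and 2 of the other Anesthesia mice lay within the Control range. For Npas4 the log2 fold change was 0.35 with an SE of 0.27 (limma adjusted p = 0.736), and 0.07 without Anesthesia 3.

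Arc, the only member whose protein acts at synapses rather than on DNA, was at 1040, 2131, 1478 and 1537 in the Anesthesia group and at 1005, 1527, 1396 and 2011 in the Control group. Each group had 1 low and 1 high mouse, and Anesthesia 3 was not among the high ones. Arc had a log2 fold change of 0.06 with an SE of 0.23 (limma adjusted p = 0.954), and it was -0.11 without Anesthesia 2 and -0.12 without Control 1.

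Per kb of the longest annotated transcript, Arc had the highest mean level over the 8 mice, at 496 ± 131 normalized counts per kb (SD), followed by Junb at 427 ± 54. Nr4a1 (143), Egr3 (113), Fosl2 (87.3), Egr1 (81) and Fos (58.3) formed a middle range, and Npas4 (18.4), Fosb (7.86) and Egr2 (7.16) were lowest. The range of each gene over the 8 mice overlapped with that of its neighbour in this order, except that every Junb value, from 365 upwards, was above the highest Nr4a1 value of 212.

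The genes did not vary as 1 block. Of the 45 pairs of members, 38 had a Pearson r above 0 across the 8 mice and 7 below 0, and the median r was 0.40, beside 0.00 for all pairs of genes tested. The r of 26 pairs was above 0.31, the upper quartile of all pairs of genes. The median r was 0.46 for deviations from the group means, and 0.24 without Anesthesia 3, when 29 pairs had an r above 0. In exact permutation tests 6 of the 45 pairs had an unadjusted p of r under 0.05 and 0 had an adjusted one.

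**Figure D2:**
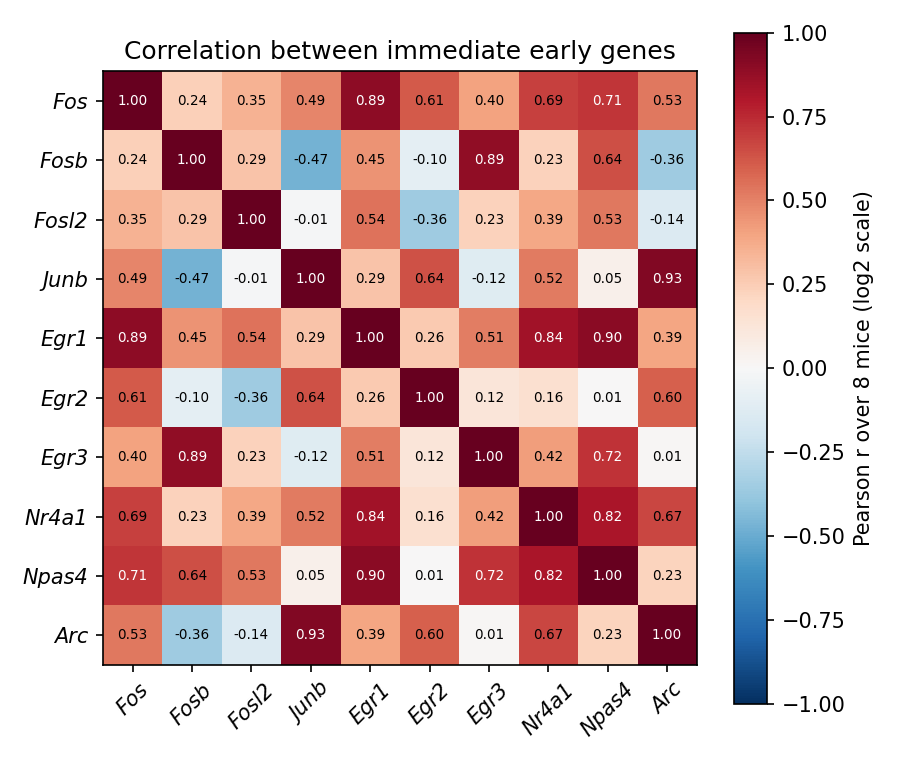
Pearson r between the log2(normalized count + 1) values of each pair of immediate early genes across the 8 mice, coloured from -1 (blue) to 1 (red). Fos, Egr1, Nr4a1 and Npas4 have r from 0.69 to 0.90 with each other, and Junb and Arc have an r of 0.93.

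The relation of Egr1 with Fos was the closest of 9. Across the 8 mice its Pearson r was 0.89 (exact permutation p = 0.00377, adjusted over 9 relations p = 0.0339) and its Spearman rho 0.91 (exact permutation p = 0.00456, adjusted p = 0.0411). The r was 0.88 without Anesthesia 1 and Anesthesia 3, the mice farthest from the median of Fos, and 0.91 for deviations from the group means. With 7 mice the adjusted exact permutation p passed 0.05 in 2 of 8 cases, those without Anesthesia 1 and without Control 2. Anesthesia 1 was lowest and Anesthesia 3 highest for both genes.

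Nr4a1 had an r of 0.69 with Fos (exact permutation p = 0.0622, adjusted p = 0.204) and a rho of 0.86 (exact permutation p = 0.0107, adjusted p = 0.0482). For Npas4 the r was 0.71 (exact permutation p = 0.0681, adjusted p = 0.204) and the rho 0.81 (exact permutation p = 0.0218, adjusted p = 0.0653). Without the 2 mice farthest from the median of Fos these r were 0.73 and 0.66, for deviations from the group means 0.78 and 0.84, and without Anesthesia 3 both were 0.51 (adjusted exact permutation p = 0.319). Among Fos, Egr1, Nr4a1 and Npas4 the rho ran from 0.74 to 0.91.

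Of the 9 relations with Fos, 1 passed by r (Egr1) and 2 by rho (Egr1 and Nr4a1), whereas Npas4 passed by neither. Beside these 3 genes the r was 0.24 for Fosb, 0.35 for Fosl2, 0.49 for Junb, 0.61 for Egr2, 0.40 for Egr3 and 0.53 for Arc, with exact permutation p from 0.112 to 0.537 and adjusted p from 0.253 to 0.537. Their rho ran from -0.17 to 0.64, with exact permutation p from 0.0962 to 0.703 and adjusted p from 0.216 to 0.703. Without Anesthesia 3 the r of Fosb turned to -0.69 and that of Egr3 to -0.31, and without Anesthesia 1 the r of Egr2 was -0.01. The r between Fosb and Fos and between Egr3 and Fos therefore rested on Anesthesia 3.

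Junb and Arc made the closest pair of all 45, named after the values were seen. Their r was 0.93 (exact permutation p = 0.00122, adjusted over 45 pairs p = 0.0513) and their rho 0.95 (exact permutation p = 0.00114, adjusted p = 0.0513). It was 0.83 without Anesthesia 2 and Control 4, the highest for both genes, and 0.94 without Anesthesia 3. Fosb and Egr3 had an r of 0.89 (exact permutation p = 0.0149, adjusted p = 0.134) but a rho of 0.38 (exact permutation p = 0.36, adjusted p = 0.623), and their r was -0.23 without Anesthesia 3 and Control 2, so this relation rested on those mice.

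**Figure D3:**
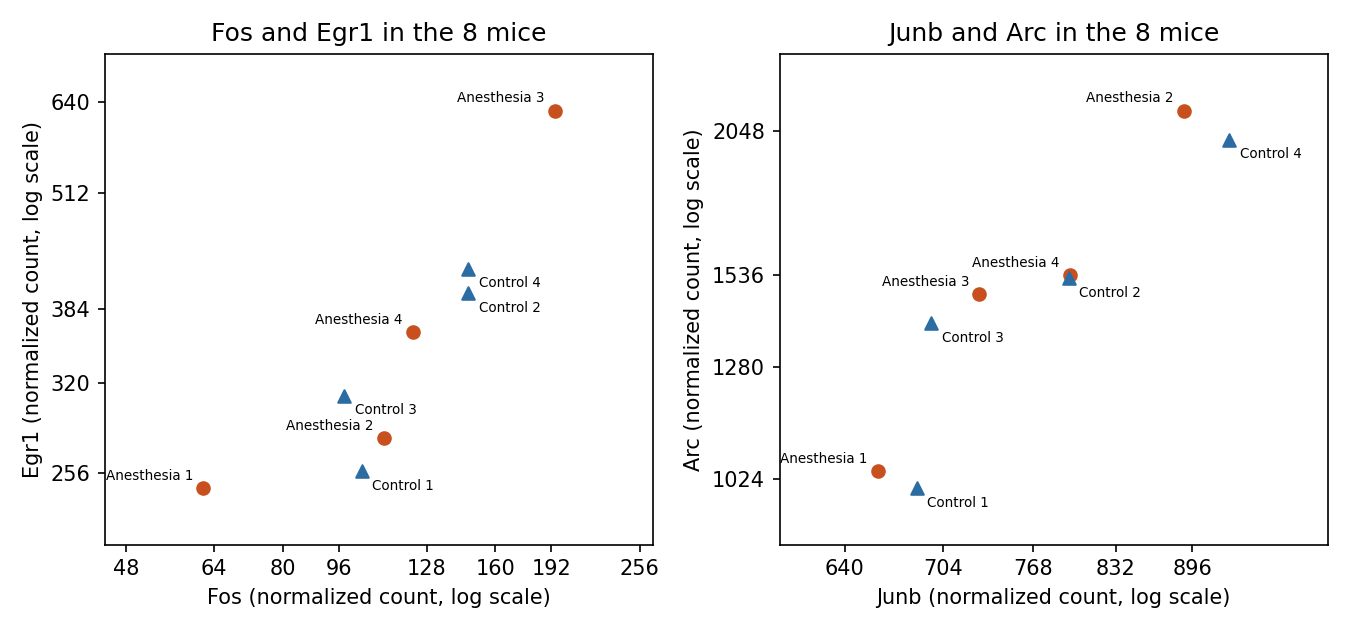
Normalized counts of Egr1 against Fos (left) and of Arc against Junb (right) in each mouse, with all axes on a log scale, circles for Anesthesia and triangles for Control. In the left panel Anesthesia 1 and Anesthesia 3 are at opposite ends, and in the right panel Anesthesia 2 and Control 4 are highest.

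The genes most like the members were also looked up, and they are described only, since they were picked for their r. Among 12247 genes with a mean of at least 100, the 5 with the highest r to the mean z score of the 10 genes were Prrt1 (0.97), Asic2 (0.97), Mindy2 (0.96), Hcn2 (0.96) and Mb21d2 (0.96) over 8 mice. Asic2, a proton-gated channel subunit, was at 532, 651, 776 and 636 in the Anesthesia group and at 548, 653, 546 and 660 in the Control group. Hcn2, a subunit of the channel for the hyperpolarization-activated current, was at 616, 675, 859 and 661 and at 626, 667, 649 and 740.

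The promoters of 7 members, all but Egr1, Egr3 and Arc, were matched in RefSeq (GRCm38.p6), and the 250 bases before each start were searched on both strands, since CREB binds the cAMP response element. Its half-site, TGACG, was found in 6 of the 7 genes, Fosl2 being without it, and in 17.8% of all 32851 windows of that length. The 2 figures have different units, genes and windows, and Egr2 had the half-site in 3 of its 5 windows. The windows of Fosl2 and Npas4 lie wholly in annotated exon (250 of 250 bases). The full palindrome TGACGTCA, which contains the half-site, was in 0 of the 7 and in 1.5% of all. The CArG box, which serum response factor binds, was in the windows of 1 member, Egr2, and in 1.5% of all. TATAAA was in 1 member, Fos, and in 12.4% of all, and the AP-1 site TGANTCA, with C or G in the middle, was in 0 members and in 4.5% of all. A match describes the letters only. Shown are Fos and Nr4a1, whose rho was 0.86, Junb, whose rho with Arc was 0.95, and 1 of 5 windows of Egr2, with the half-site or its complement in capitals. They lie at chr12:85473640-85473889 (plus strand), chr15:101266596-101266845 (plus), chr8:84978749-84978998 (minus) and chr10:67537619-67537868 (plus), and 0 of their bases fall in an exon annotated by GENCODE.
Fos: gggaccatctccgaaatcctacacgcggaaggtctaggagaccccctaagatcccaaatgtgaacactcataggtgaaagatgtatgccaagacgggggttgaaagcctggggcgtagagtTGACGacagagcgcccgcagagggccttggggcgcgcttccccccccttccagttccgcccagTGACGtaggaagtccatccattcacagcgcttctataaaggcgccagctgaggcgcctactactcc
Nr4a1: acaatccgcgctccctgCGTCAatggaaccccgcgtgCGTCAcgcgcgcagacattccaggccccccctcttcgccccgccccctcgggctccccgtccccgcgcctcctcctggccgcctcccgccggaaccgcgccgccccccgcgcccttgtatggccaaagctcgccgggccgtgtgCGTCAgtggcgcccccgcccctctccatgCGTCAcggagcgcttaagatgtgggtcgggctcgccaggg
Junb: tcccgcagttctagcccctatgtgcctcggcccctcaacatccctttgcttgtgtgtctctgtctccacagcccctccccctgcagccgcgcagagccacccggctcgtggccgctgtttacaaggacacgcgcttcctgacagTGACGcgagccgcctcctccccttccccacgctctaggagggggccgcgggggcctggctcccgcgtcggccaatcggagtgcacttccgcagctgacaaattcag
Egr2: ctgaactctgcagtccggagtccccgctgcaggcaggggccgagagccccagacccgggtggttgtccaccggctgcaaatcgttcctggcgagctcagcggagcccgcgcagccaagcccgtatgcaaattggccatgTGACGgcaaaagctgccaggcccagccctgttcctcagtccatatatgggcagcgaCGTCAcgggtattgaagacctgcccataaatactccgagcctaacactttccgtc
Fos held 2 half-sites, Nr4a1 4, Junb 1 and Egr2 2.

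Other genes of the activity response were counted by list. Of 15 further fast transcriptional regulators 14 were found, and 1 was higher and 0 lower in the Anesthesia group at an unadjusted p under 0.05 in limma, with a median log2 fold change of 0.03. Over all genes tested 8.02% had such a p. That gene was Ier5, at 747, 843, 993 and 1007 against 638, 698, 628 and 862 (log2 fold change 0.35, SE 0.12, limma adjusted p = 0.62). In order of p it was followed by Atf3 (-0.64) and Ier2 (0.35), and the most abundant gene, Nr4a3, had a log2 fold change of -0.12. Ier5 exceeded the highest Control mouse in 2 of 4 Anesthesia mice.

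Among 14 fast effectors and feedback genes the count was 0 in both directions, beside 8.02% of all genes, with a median of -0.07. Ccn1 (-0.40), Gadd45b (-0.22) and Ptgs2 (-0.23), the inducible cyclooxygenase, had the smallest p, and Plk2, a kinase of dendritic spines, was the most abundant (-0.09). Of 10 secreted and delayed genes 1 was higher and 0 lower, beside 897 and 616 of all 18865 genes, with a median of 0.04. It was Vgf, the precursor of neuropeptides, at 1077, 958, 1386 and 1021 against 753, 876, 816 and 987 (log2 fold change 0.36, SE 0.12, limma adjusted p = 0.62). Scg2 (-0.15), also the most abundant, and Npy (0.15) followed. For Vgf, 3 Anesthesia mice exceeded every Control mouse and 1 lay below Control 4. Bdnf, the neurotrophin of the list, was at 852, 1096, 563 and 646 against 996, 845, 803 and 777, lowest in Anesthesia 3, where 6 members were highest.

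Of 21 upstream kinases and factors 3 were higher and 0 lower at an unadjusted p under 0.05, beside 897 higher and 616 lower of all 18865 genes, with a median of 0.07. They were Crtc1 (0.37, SE 0.10), a coactivator of CREB, and the acetyltransferases Crebbp (0.23, SE 0.06) and Ep300 (0.22, SE 0.07), with limma adjusted p of 0.568, 0.568 and 0.619. Crebbp was at 2332, 2572, 2692 and 2588 against 2150, 2314, 2059 and 2133, the 1 gene of the list whose groups did not overlap, beside 5.04% of all genes. The calcineurin subunit Ppp3ca was the most abundant (-0.15). Mef2c was at 9155 in Anesthesia 3 and from 2709 to 4134 in the other mice.

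Handling and stress can induce these genes too. Of 7 heat shock genes 0 passed an unadjusted p of 0.05 in either direction, all 7 were lower on average in the Anesthesia group, and their median was -0.06. Hspa8 (-0.09), the most abundant, Hsp90aa1 (-0.06) and Hsph1 (-0.05) had the smallest p. Of 7 glucocorticoid response genes 0 were higher and 2 lower, beside 8.02% of all genes in either direction (616 of 18865 lower), with a median of -0.16. They were Sgk1, at 1874, 1474, 1509 and 1253 against 1698, 1755, 2447 and 2307 (log2 fold change -0.42, SE 0.14, limma adjusted p = 0.62), and Nfkbia (-0.23, SE 0.09, adjusted p = 0.62), whose groups did not overlap, as in 5.04% of all genes. The 4 mice with the highest choroid plexus sums, given below, also had the 4 highest Sgk1 values, and the part of choroid plexus content in Sgk1 was not tested. Zbtb16 (0.18) came next and Tsc22d3 (-0.16) was the most abundant.

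Markers of the hippocampal fields were present in every mouse. The 6 dentate granule neuron genes, led by Prox1, summed to 4612, 8594, 3139 and 5009 normalized counts in Anesthesia 1 to 4 and to 7046, 4792, 5178 and 3773 in Control 1 to 4. The 5 CA3 genes, led by Bok, summed to 2854, 3289, 1842 and 2686 and to 3422, 2294, 3155 and 2830. The 5 CA1 genes, led by Mpped1, ran from 5586 to 7030. All 5 CA3 genes were lower on average in the Anesthesia group, and in these 3 lists 0 genes had an unadjusted p under 0.05 in limma, beside 8.02% of all genes. Anesthesia 3, with the highest mean profile of the immediate early genes, had the lowest dentate granule and CA3 sums. It also had the lowest mean log2 deviation of the CA1 genes, at -0.33, with the other mice from -0.13 to 0.19. Of the 5 CA1 genes 3 were lowest in Anesthesia 3, whereas Mpped1, which weighs most in the sum, was highest there. A list of 9 neocortical genes, added after the values were seen and led by Tshz2, summed to 3150, 2063, 6296 and 3737 and to 2323, 3042, 1959 and 3309, and 7 of the 9 were highest in Anesthesia 3. All 9 were higher on average in the Anesthesia group, 0 of them at an unadjusted p under 0.05 in limma. The part of tissue composition in the values of Anesthesia 3 was not tested.

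Choroid plexus content also differed between mice. Its 12 markers summed to 87040, 4975, 4598 and 9985 in the Anesthesia group and to 4372, 46070, 103900 and 101600 in the Control group. Its most abundant gene, the thyroxine carrier Ttr, ran from 145 in Control 1 to 61580 in Control 3, and Kcne2 was at 0 in Control 1. All 12 were lower on average in the Anesthesia group, 0 of them at an unadjusted p under 0.05 in limma, beside 8.02% of all genes. With these markers as a covariate 0 members had an unadjusted p under 0.05 in limma, beside 872 of all genes tested. The log2 fold change moved from 0.05 to -0.03 for Egr1, from -0.10 to -0.31 for Fos and from 0.46 to 0.24 for Fosb. It moved from -0.28 to -0.46 for Egr2 and from 0.16 to 0.10 for Egr3. The median r of the 45 pairs was 0.41 and that of Fos and Egr1 0.90 after the markers were regressed out. The 4 mice with high and the 4 with low content were too few for an r of their own.

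Markers of other cell types were also summed. In sums per mouse, 7 thalamic genes found of 8 (Prkcd the most abundant) ran from 838 to 2304, 6 interneuron genes (Gad1) from 7223 to 8667 and 5 oligodendrocyte genes (Mbp) from 79770 to 154300. The 7 endothelial genes (Slco1a4) ran from 4541 to 6064 and the 5 blood genes (Hbb-bs) from 5066 to 8418. At an unadjusted p under 0.05 in limma 1 of 7 thalamic genes and 1 of 6 interneuron genes were lower, beside 616 of 18865 genes lower and 8.02% with such a p in either direction, and 0 genes of the astrocyte, oligodendrocyte, endothelial and blood lists had such a p. All 5 oligodendrocyte and all 5 blood genes were lower on average in the Anesthesia group. The 5 astrocyte genes, led by Aldoc, summed to 29600, 30610, 30410 and 29780 in the Anesthesia group and to 31190, 31380, 30890 and 31670 in the Control group, so that every Anesthesia sum lay below every Control sum. On average 4 of these 5 genes were lower in the Anesthesia group and 1 was higher. Of the 5, 2 had groups that did not overlap, Gja1 and Slc1a3, named after their values were seen, beside 5.04% of all genes.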

How the data were processed

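RNA of the hippocampus was sequenced from 8 mice. The authors quantified transcripts with Salmon 1.1.0 on GRCm38 with GC bias correction, summarised them per gene with tximport and normalized with DESeq2 1.30.1, and the deposited values analysed here are this normalized signal. The library kit is named differently in the labels and the methods, and the annotation release is not given in the sources used here. Identifiers were matched to symbols for 20784 of 20802 genes. Whole reads were not recovered, since 51.6% to 73.3% of low values lay within 0.1 of a whole read, so no count model was run. limma 3.58.1 in R 4.3.3 was fitted with a mean-variance trend to log2(value + 1) for the 18865 genes whose mean reached 10, with Benjamini-Hochberg adjustment and a threshold of 0.05. The scripts were tested on simulated data. Correlations were tested by two-sided exact permutation over all 40320 orders of the mice (Python with scipy). The genes named are the 10 members, in each pathway list the 3 smallest p and the highest mean, in each marker list reported the highest mean, and 5 genes outside the lists most correlated with the members. Bdnf, Mef2c, Kcne2, Gja1, Slc1a3, mt-Nd4l, Gm10222 and the neocortical genes were named after their values were seen. 1 marker list is not reported here. The members and lists were chosen with earlier results of these data known. Alternatives were other scalings, filters, pseudocounts, limma voom, a robust spread, a replicate block, a correction for GC content and length, a choroid plexus covariate, and each mouse left out.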

Additional observations from a re-analysis of the deposited data

Results flagged for a closer look

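Among the 20 groups of 4 mice formed by the immediate early genes, 1 had a mouse far from the others. Egr3 in Anesthesia 3 was at 557 normalized counts, with the other Anesthesia mice between 433 and 452, and on untransformed values the gap made up 0.849 of the range of the group, above Dixon's critical value for a group of this size. Among all 94 groups of the genes named by a fixed rule 3 had such a mouse, and chance gives about 1 in 20, or 4.7. The others were Ttr, at 53000 in Anesthesia 1 and between 182 and 2679 in the rest of its group (0.953), and Mbp, at 57020 in Anesthesia 4 and between 31460 and 35290 (0.85). The flag depends on the scale. The log2(value + 1) scale, that of the tests, was tried after the data were seen. On it the shares are 0.832 for Egr3, 0.527 for Ttr and 0.807 for Mbp, so that Ttr and Mbp fall under the critical value. On this scale 2 of the 94 groups have such a mouse, that of Egr3 and another not flagged on untransformed values. Among 16 groups of the 8 genes named after their values were seen, 3 had a mouse far from the others, a count that the choice of genes can raise. Mef2c was at 9155 in Anesthesia 3 and between 3154 and 4134 in the rest of its group (0.837), Kcne2 at 264.9 in Anesthesia 1 and between 2.135 and 16.36 (0.946), and Gm10222 at 61.9 in Control 1 and at 0 in the other Control mice (1.0). On the log2 scale the shares are 0.746, 0.615 and 1.0, so that Mef2c and Kcne2 fall under the critical value. Then 3 of the 16 groups have such a mouse, that of Gm10222 and others not flagged on untransformed values.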

How the results depend on the processing

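The number of genes with an adjusted p under 0.05 in limma was 0 under all 12 other settings with 8 mice, and from 0 to 2 with a mouse left out (2 without Control 1, named after their values were seen: mt-Nd4l and Gm10222). Genes at an unadjusted p under 0.05 numbered 872 after adjustment for choroid plexus content, and 912 with the GC and length correction together with the replicate block. Immediate early genes at an unadjusted p under 0.05 numbered 0 in those 12 settings and from 0 to 1 with a mouse left out, and their median log2 fold change ran from 0.05 to 0.10 and from -0.002 to 0.213. Their median pairwise r ran from 0.322 (GC content and length correction) to 0.503 (replicate block) over 8 other settings and from 0.24 to 0.482 with a mouse left out; settings that change the filter or the weights give it no separate value. With the choroid plexus covariate the log2 fold change was -0.026 for Egr1, -0.311 for Fos, 0.238 for Fosb, -0.46 for Egr2 and 0.096 for Egr3. With a mouse left out, the log2 fold change ran from -0.36 to 0.19 for Fos, from -0.085 to 0.078 for Junb, from -0.22 to 0.23 for Egr1 and from -0.12 to 0.23 for Arc, and those of the other 6 members kept their sign, though Fosb came to 0.027, Fosl2 to 0.034, Nr4a1 to 0.063, Npas4 to 0.07, Egr2 to -0.074 and Egr3 to 0.079. Genes correlated with Fos at an adjusted exact permutation p under 0.05 numbered 3 with untransformed values (Egr1, Nr4a1 and Npas4) and from 0 to 2 with a mouse left out. With a mouse left out the r with Fos ran from -0.69 to 0.50 for Fosb, from -0.31 to 0.68 for Egr3 and from -0.006 to 0.712 for Egr2. Where a value moved, the cause was not tested, other than that fewer mice were used. Same-numbered mice had correlations of -0.242, -0.109, -0.182 and 0.019 between their deviations and none was closest to its own number, so the numbers pair no mice; the replicate block left 1084 genes at an unadjusted p under 0.05 and 0 at an adjusted one.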
